A study of Homo sapiens with 8 samples.

Results

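The response of RPE-1 cells to extracellular vesicles (EV) was read 1 h after their addition, with 2 libraries on each side. RPE-1 is an hTERT-immortalised human line from the retinal pigment epithelium. The 2 libraries with EV were EV alone and all-trans-retinal (atRAL) plus EV, and each was set against its partner without EV, the untreated control and atRAL alone. Members of the comparison were the genes with at least 100 read counts in at least 1 of these 4 libraries, and 81 readthrough genes that met this minimum were set aside by their description. That left 12562 of the 46427 genes in the table, in 4 of the 8 libraries of the series.

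EV are membrane particles shed by cells, and these came from mesenchymal stem cells derived from tonsil. They were added at 2000000000 particles per ml to 2500000 cells, and atRAL, the retinaldehyde released from bleached visual pigment, was added at 25 µM. The other 4 libraries of the series are the same conditions at 6 h, and every condition has 1 library. The labels name no separate cultures for the libraries. The spread behind the p-values is how far single libraries depart from EV and atRAL effects that add up on the log scale. It may be technical, or hold a real interaction of EV and atRAL.

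Cells that receive a growth factor or another signal at their surface switch on immediate early genes, which need no new protein synthesis for their transcription. Many of these genes encode transcription factors of the FOS, JUN and EGR families, and a later set encodes phosphatases and inhibitors that dampen the ERK kinase pathway. Many mRNAs of both sets are short-lived and carry elements bound by decay factors such as the ZFP36 protein.

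Regulation of immediate early genes is commonly studied at a pair of promoter sites, the CArG box bound by SRF and the cAMP response element bound by CREB and ATF proteins, and stretches of 4 promoters that hold them are shown here for reference. The sequences are RefSeq's, on GRCh38.p14, and the capitals mark the CArG box (EGR1 and SRF) or TGACGTCA (MAFF and CCNL1). The EGR1 stretch lies at chr5:138465354-138465425 on the plus strand and the SRF stretch at chr6:43171219-43171268 on the plus strand. The MAFF stretch lies at chr22:38201920-38201967 on the plus strand and the CCNL1 stretch at chr3:157160206-157160253 on the minus strand.
EGR1: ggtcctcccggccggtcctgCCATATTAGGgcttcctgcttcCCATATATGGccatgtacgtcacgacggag
SRF: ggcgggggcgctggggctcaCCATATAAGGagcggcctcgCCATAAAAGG
MAFF: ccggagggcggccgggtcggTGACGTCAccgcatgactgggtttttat
CCNL1: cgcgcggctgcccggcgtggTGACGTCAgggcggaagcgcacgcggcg

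Of 30 members called higher with EV (below), 24 had a promoter in the RefSeq table, which covers 250 bases before to 50 bases after the start. DUSP5, IER3, KBTBD8, KLF10, MCL1 and TRIB1 had no entry. On either strand, the CArG box was found in 0 of these 24 promoters, in 2 of the 17 promoters of the immediate early gene list (EGR1 and SRF, with 2 boxes each), in 1.05% of the members' promoters and in 1.29% of all 27305 promoters. The palindrome TGACGTCA was found in 2 of the 24 (MAFF and CCNL1, 8.33%), in 3.33% of the members' promoters and in 1.98% of all. TATAAA was found in 16.7% of the 24 promoters, in 5.13% of the members' and in 12.0% of all, and CCGGAAG in 20.8%, 20.1% and 10.7%. A match describes these letters in this window only.

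The 4 libraries of 1 h held 45566237 (atRAL) to 70916624 (atRAL plus EV) counts, so that 3 counts correspond to 0.0423 to 0.0658 CPM (counts scaled to the library's total). The members took over 99.7% of the counts in each. Of the 12562 members, 11878 reached the minimum in all 4 libraries, and 241 reached it in 1 library. The minimum was reached only with EV by 284 members and only without EV by 37. It is a raw count, and the deepest library (atRAL plus EV) has EV while the shallowest (atRAL) has none. Depth thus enters this split, and its share was not tested. Because a member may have entered through its high side, counts over members are given beside counts over all 17044 genes tested. Members whose highest count lay just inside the minimum (100 to 105 counts, 92 genes) had a median log2 fold change of 0.05, and tested genes just outside it (95 to 99 counts, 77 genes) had -0.04.

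The labelled cell type was checked by markers. Among 13 markers of retinal pigment epithelium, MITF, OTX2, KRT8 and KRT18 were members, TTR, TYR and CRX had no count in the 4 libraries, and RPE65, the visual cycle isomerase, had 0 to 4 counts. Summed over the 13 markers the level was 1096 CPM in the control, 1103 with EV, 1170 with atRAL and 1222 with atRAL plus EV. Most of this sum came from KRT8 and KRT18, with 34585 and 24107 counts in the control, against 1620 for MITF and 1085 for OTX2. RLBP1, BEST1, PMEL, SERPINF1 and LRAT had at most 65 counts in any library of 1 h. Markers of mesenchymal stem cells and fibroblasts, which the source of the EV could bring, summed to 2476 CPM in the control and 2508 with EV, and to 2585 with atRAL and 2440 with atRAL plus EV. None of the 6 members among these 10 markers was called, and VCAM1 had no count. The control without EV already held much of this sum, with 54498 counts of NT5E and 47806 of ALCAM. A small amount of RNA brought by the EV could therefore not show in the sum, and whether any was brought was not tested. Of 7 lymphoid markers of the tonsil none was a member, MS4A1, CXCL13 and CR2 had no count, and the sum was at most 0.439 CPM. Among 4 tonsil epithelial markers none was a member, with sums of 0 to 0.329 CPM, and among 3 endothelial markers none was a member, with sums of 1.10 to 1.31 CPM.

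A small group of genes was higher with EV at 1 h, and hardly any was lower. Relative to their partners without EV, 30 members were higher and 1 was lower at an adjusted p under 0.05, by edgeR's quasi-likelihood test. Over all 17044 genes tested, 35 genes (0.205%) were called, 31 higher (0.182%) and 4 lower (0.0235%). The 30 members that rose include 5 genes of the immediate early list (EGR2, JUNB, IER2, IER3 and MAFF), 7 ERK feedback genes (DUSP2, DUSP5, DUSP6, SPRY2, SPRY4, ERRFI1 and PHLDA1) and 2 mRNA decay factors (ZFP36 and ZC3H12A). They rose 1.54-fold (BCL10) to 17.0-fold (EGR2), 21 of them by 2-fold or more, and in all 30 both EV libraries lay above both libraries without EV. Over all 12562 members, both EV libraries lay above both others in 2294 and below both in 2146. The 30 were called on these same libraries, so their separation is a description. The median log2 fold change of all genes tested was -0.0013. A further 4 called genes were no members, 3 of them readthrough genes that share reads with their neighbours.

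**Figure D1:**
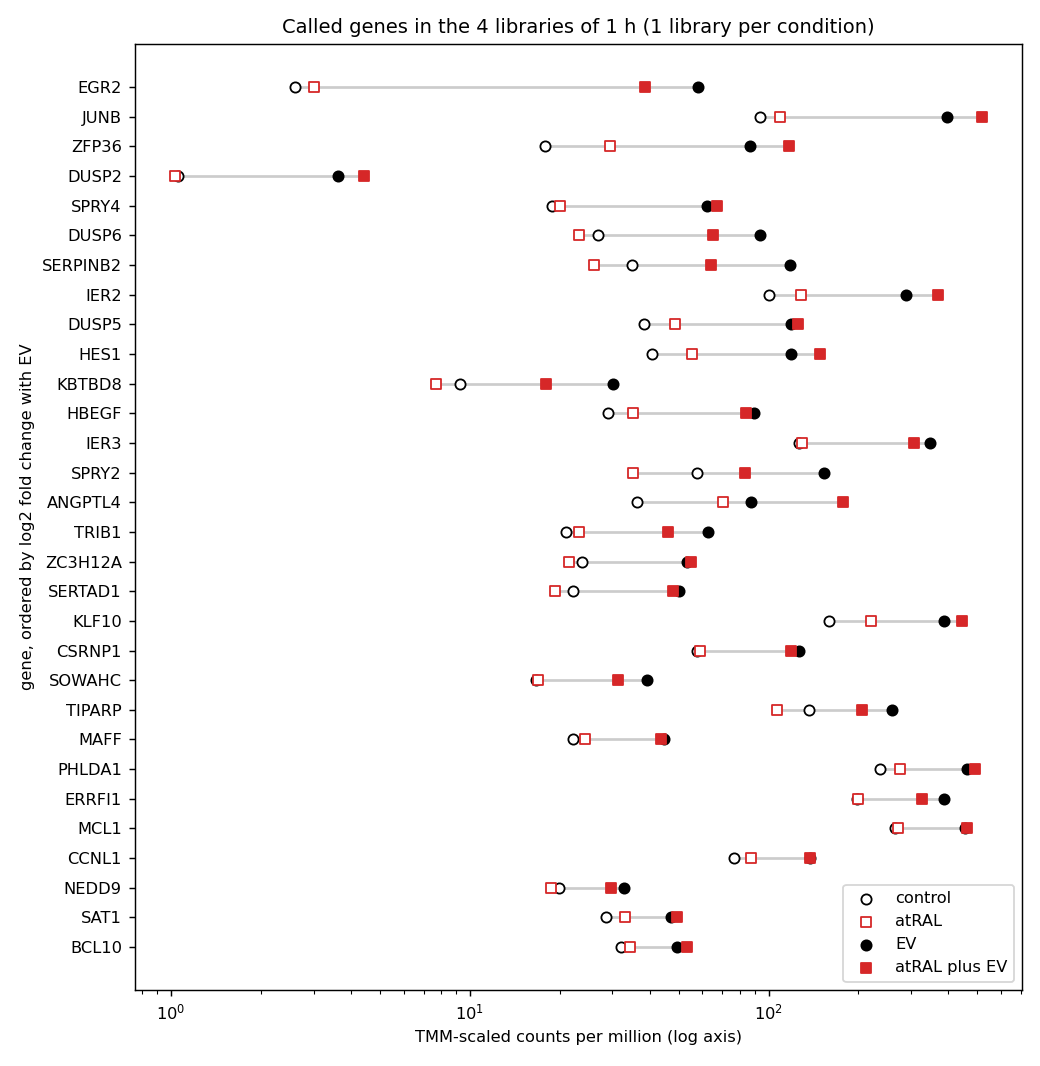
Level of the 30 members called higher with EV in each of the 4 libraries of 1 h, in TMM-scaled CPM on a log axis, ordered by log2 fold change. Open symbols are the libraries without EV and filled symbols those with EV, circles without atRAL and squares with it. In every row both filled symbols lie to the right of both open ones, an order that holds for 2294 of all 12562 members.

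The largest rise among the called genes was that of EGR2, a zinc finger transcription factor (NCBI Gene 1959, chr10:62811996-62819167 on GRCh38.p14). Its level, in CPM scaled by TMM as for all gene values here, was 2.59 in the control and 57.95 with EV, and 3.002 with atRAL and 38.5 with atRAL plus EV. The libraries with EV and without it were far apart, and the log2 fold change was 4.09 (SE 0.19, edgeR adjusted p = 0.00105). Of the 20 alternative settings tried, EGR2 was called in each.

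JUNB encodes a JUN partner of the AP-1 transcription factor and lies at chr19:12791486-12793315. It was at 93.3 CPM in the control, 395 with EV, 109 with atRAL and 519 with atRAL plus EV, without overlap between the groups. Its log2 fold change was 2.17 (SE 0.17, edgeR adjusted p = 0.0164). IER2, a nuclear immediate early protein, went from 100 CPM in the control to 288 with EV and from 128 to 369 between the atRAL libraries, a log2 fold change of 1.52 (SE 0.10). IER3, an early response gene tied to cell survival, went from 126 to 347 CPM without atRAL and from 130 to 308 with it. MAFF, a small MAF factor, went from 22.1 to 44.6 and from 24.3 to 43.8 CPM. For IER2, IER3 and MAFF as well, neither EV library came down to the level of a library without EV, and the EV changes of IER2 and IER3 passed the test with the same edgeR adjusted p of 0.00105, that of MAFF with 0.00860.

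All 22 members of the immediate early list were above 0 in both pairs, and their median log2 fold change was 0.82, against 0.0027 over all members. In the whole set of members, 25.4% were above 0 in both pairs. The other 17 did not pass the test, although some of them had larger fold changes than most called genes. EGR1, a zinc finger factor like EGR2, was at 227 CPM in the control and 1900 with EV, and at 417 with atRAL and 2125 with atRAL plus EV. Per length it was at 61.8 FPKM in the control and 537 with EV, where JUNB was at 43.6 and 192 and EGR2 at 0.743 and 17.3. The log2 fold change of EGR1 was 2.71 with an SE of 0.40 (edgeR adjusted p = 0.50).

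FOS, the founding AP-1 subunit, was at 2.19 CPM in the control, 41.3 with EV, 5.32 with atRAL and 48.7 with atRAL plus EV. Its groups did not overlap, but the SE of its log2 fold change of 3.67 was 0.87 (edgeR adjusted p = 1.0). The fit takes its spread from all 8 libraries, and at 6 h FOS was at 111 CPM with atRAL and 8.14 with atRAL plus EV, against 1.13 and 0.742 in the libraries without atRAL. FOSB had a log2 fold change of 3.56 (SE 0.97), EGR3 3.85 (SE 0.51), ATF3, a stress-responsive factor of the CREB family, 2.93 (SE 0.48), and JUN 1.61 (SE 0.26), and none passed. In a fit of the 4 libraries of 1 h alone, which has 1 residual degree of freedom, all 6 passed, with edgeR adjusted p-values of 7.20e-05 (EGR3), 0.000397 (ATF3), 3.37e-05 (JUN), 0.0220 (FOS), 0.0224 (EGR1) and 0.0353 (FOSB), and 13 of the 22 members of the list were called higher. That fit called 134 genes (0.786%), 113 higher (0.663%) and 21 lower (0.123%), among them 108 members higher and 14 lower.

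The ERK feedback list had 21 members, of which 7 rose, 0 fell and 14 did not pass, with a median log2 fold change of 0.41. SPRY4, a Sprouty inhibitor of receptor signalling, was at 18.8 CPM in the control, 62.4 with EV, 20.1 with atRAL and 67.5 with atRAL plus EV (log2 fold change 1.74, SE 0.15, edgeR adjusted p = 0.0086). Its relative SPRY2 went from 57.7 to 153 CPM without atRAL and from 35.2 to 83.6 CPM with it. SPRY1, also a Sprouty gene, was at 2.47 CPM in the control, 1.83 with EV, 3.53 with atRAL and 1.95 with atRAL plus EV, and its log2 difference of -0.65 (SE 0.32) did not pass.

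DUSP6, a cytoplasmic phosphatase of ERK, was at 27.0 CPM in the control, 93.3 with EV, 23.1 with atRAL and 65.2 with atRAL plus EV. DUSP5, a nuclear phosphatase of ERK, was at 38.2, 119, 48.8 and 125.0 CPM in the same order. Both rose with an edgeR adjusted p of 0.00105, DUSP6 by 3.13-fold and DUSP5 by 2.82-fold. DUSP2, another nuclear phosphatase, rose by 1.94 on the log2 scale (SE 0.22) from about 1 CPM, at 60, 210, 47 and 311 counts in the same order. DUSP1, DUSP4 and DUSP8, other dual-specificity phosphatases, had log2 differences of 1.34, 0.78 and 1.04 and did not pass (edgeR adjusted p of 0.170, 0.0851 and 0.0728). ERRFI1, an inhibitor of EGF receptors, and PHLDA1 rose 1.79-fold and 1.86-fold. SPRED1 and SPRED2, which also restrain the pathway, had log2 differences of 0.01 (SE 0.08) and 0.04 (SE 0.07).

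Among 12 mRNA decay factors, 2 rose, 0 fell and 10 did not pass, and the median was 0.21. ZFP36, which binds AU-rich elements, was at 17.9 CPM in the control, 86.9 with EV, 29.5 with atRAL and 118 with atRAL plus EV. The libraries with EV again lay above those without, and the log2 fold change was 2.14 (SE 0.20, edgeR adjusted p = 0.0450). ZC3H12A, an endonuclease acting on cytokine mRNAs, rose by 1.27 (SE 0.10). ZFP36L1 and ZFP36L2, of the same family as ZFP36, had log2 differences of 0.65 (SE 0.14) and -0.45 (SE 0.09), which did not pass.

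Of the ligands, HBEGF, an EGF receptor ligand shed from the cell surface, was at 29.0 CPM in the control, 89.6 with EV, 35.1 with atRAL and 83.8 with atRAL plus EV. Its log2 fold change was 1.44 (SE 0.11, edgeR adjusted p = 0.00315), and it was the only one of 8 members of the EGF ligand and receptor list that was called. ANGPTL4, a secreted inhibitor of lipoprotein lipase, was at 36.3 CPM in the control, 87.0 with EV, 70.5 with atRAL and 178 with atRAL plus EV. Here the EV library without atRAL lay only a little above the atRAL library without EV, and the EV effect passed with an edgeR adjusted p of 0.00105. ANGPTL4 was also the 1 gene (0.00587%) called for atRAL at 1 h, a comparison made from the same 4 libraries, with a log2 fold change of 1.00 (SE 0.08, edgeR adjusted p = 0.0417).

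The cytokine and chemokine list had 21 genes, of which 10 were members, and a gene may have become a member through its EV side. All 10 were above 0 in both pairs, as were 25.4% of all members and 24.5% of all genes tested. The 10 had a median of 0.92, and 0 passed the test. LIF, a cytokine of the IL-6 family, was at 570 CPM in the control, 1322 with EV, 946 with atRAL and 1891 with atRAL plus EV (log2 difference 1.11, SE 0.15, edgeR adjusted p = 0.0760). CXCL8, a neutrophil chemokine, was at 5.66, 23.5, 16.7 and 40.6 CPM in the same order, and its groups did not overlap. The differences of IL11, IL1A, IL6 and IL1B were 1.23, 1.20, 0.93 and 0.91. In the fit of the 4 libraries of 1 h alone, 6 of the 10 were called higher. The NF-kB list, which holds targets and inhibitors of that pathway, had 16 members, 0 called, with a median of 0.10, and NFKBIA and TNFAIP3 differed by 0.22 (SE 0.13) and 0.10 (SE 0.26).

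The NR4A and cAMP response list had 11 members and 0 called, with a median of 0.32. NR4A1, an orphan nuclear receptor induced by many signals, was at 16.2 CPM in the control, 71.7 with EV, 15.1 with atRAL and 86.0 with atRAL plus EV (log2 difference 2.33, SE 0.28, edgeR adjusted p = 0.204). NR4A3 and NR4A2 had differences of 2.94 (SE 0.90) and 1.49 (SE 0.33). In the fit of the 4 libraries of 1 h alone, 4 of the 11 were called higher, NR4A1, NR4A2 and NR4A3 among them. PTGS2, the inducible cyclooxygenase, was at 4.49, 45.1, 6.95 and 29.1 CPM in the order control, EV, atRAL and atRAL plus EV, a log2 difference of 2.69 (SE 0.42) that did not pass.

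**Figure D2:**
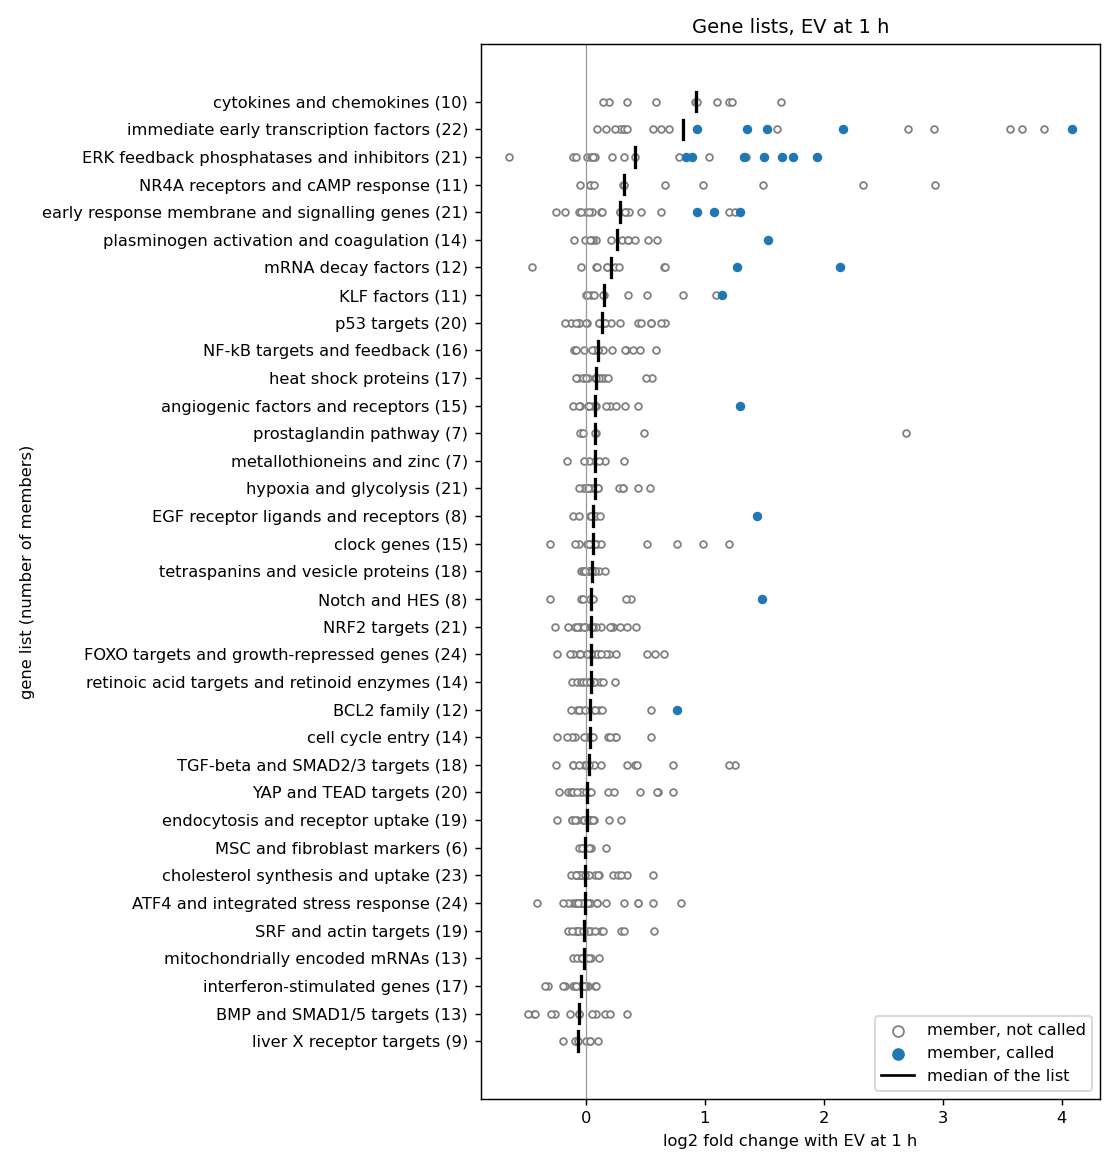
Log2 fold change with EV at 1 h of the members of gene lists with at least 5 members, with filled points for called members and a black bar for the list's median. The cytokine, immediate early and ERK feedback lists have the highest medians (0.92, 0.82 and 0.41), and most other medians lie close to 0. The medians cover members only, 10 of the 21 genes listed for cytokines.

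Other members that rose belong to several lists. SERPINB2, the plasminogen activator inhibitor PAI-2, was at 34.9 CPM in the control, 118 with EV, 26.0 with atRAL and 64.0 with atRAL plus EV (log2 fold change 1.53, SE 0.12). It was the 1 called member of 14 in the plasminogen and coagulation list, whose median was 0.26. HES1, a repressor and Notch target, rose 2.79-fold and was the 1 called of 8 members of the Notch list. KLF10, a zinc finger factor induced by TGF-beta, rose 2.21-fold and was the 1 called of 11 KLF members, while KLF6 (1.10, SE 0.14) did not pass.

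MCL1, a survival protein of the BCL2 family, was at 265 CPM in the control, 455 with EV, 272 with atRAL and 460.0 with atRAL plus EV. It was the 1 called of the 12 members of its list. In the list of early response membrane and signalling genes, TRIB1, CSRNP1 and TIPARP rose (log2 fold changes 1.29, 1.08 and 0.93), and SNAI1 and SGK1 (1.26 and 1.20) did not pass, among 21 members with a median of 0.29. The remaining called members were KBTBD8, SERTAD1, SOWAHC, CCNL1, NEDD9, SAT1 and BCL10, with folds of 1.54 (BCL10) to 2.77 (KBTBD8).

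No member was called in the lists of SRF and actin targets (19 members, median -0.01), YAP and TEAD targets (20, 0.01), TGF-beta targets (18, 0.03), BMP targets (13, -0.06) and interferon-stimulated genes (17, -0.04). The same held for ATF4 targets (24 members, median -0.01), NRF2 targets (21, 0.04), heat shock proteins (17, 0.09), p53 targets (20, 0.14), hypoxia and glycolysis (21, 0.07), cholesterol synthesis (23, -0.007) and retinoid genes (14, 0.04). In the fit of the 1 h libraries alone, 5 TGF-beta, 4 YAP and TEAD, 3 ATF4 and 3 p53 targets were called higher. That fit called at most 1 gene in each other list of this paragraph so far. Of the genes concerned with vesicles themselves, 18 tetraspanins and vesicle proteins had a median of 0.05 and 19 endocytosis genes 0.006, again with 0 called. The 13 mitochondrially encoded mRNAs had a median of -0.01, and FOXO targets (24) 0.04, metallothioneins (7) 0.07, clock genes (15) 0.06, cell cycle entry genes (14) 0.03, prostaglandin genes (7) 0.08 and liver X receptor targets (9) -0.06. The angiogenic list (15 members, median 0.08) held 1 called member, ANGPTL4. An unadjusted p under 0.05 was found for 586 of the 12562 members, 360 of them higher, and for 771 of the 17044 genes tested. DESeq2 called 101 members, 92 higher and 9 lower.

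Few members were lower. MIR34AHG, the host gene of miR-34a (chr1:9148011-9182338), had 196 counts in the control, 0 with EV, 167 with atRAL and 0 with atRAL plus EV. Taking 3 counts per library as the floor, it was at least 68.5-fold lower with EV alone and at least 86.6-fold lower in the atRAL pair, and it was called lower (edgeR adjusted p = 0.0131). It became a member through its libraries without EV alone, so its fall follows in part from the rule. At 6 h the 4 libraries held 288, 259, 388 and 170 counts, and neither limma-voom nor limma on log2(FPKM + 1) called it at 1 h. Among members with a gene symbol, other than pseudogenes, a mean log2 CPM of at least 1 and a 1.3-fold decrease in both pairs, the next lowest did not pass. TMEFF1, a membrane protein with follistatin-like domains, was at 3.19 CPM in the control, 1.07 with EV, 3.75 with atRAL and 1.82 with atRAL plus EV (log2 difference -1.29, SE 0.21, edgeR adjusted p = 0.0945). FAM71F2 (-1.26), PPP1R3C, a glycogen-targeting phosphatase subunit (-0.79), JMJD4 (-0.68), FRAT2 (-0.65) and ZNF232 (-0.61) were among the others. RNA45SN3, a ribosomal RNA precursor gene (-0.83), has near-identical copies and is uncertain. In the fit of the 1 h libraries alone, TMEFF1, FAM71F2, PPP1R3C and RNA45SN3 passed, with edgeR adjusted p-values of 0.0315, 0.0325, 0.00503 and 0.00850.

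A count of 0 in at least 1 library of 1 h occurred in 7 members. SLCO5A1, a transporter of the organic anion family, had 0 counts in the control, 161 with EV, 0 with atRAL and 175 with atRAL plus EV. At a floor of 3 counts these are rises of at least 51.2-fold and at least 37.5-fold with EV. The gene became a member through its EV libraries alone, so its rise follows in part from the rule. Other members named here were at 0 in libraries that did not follow EV, so a 0 may not mark absence and such bounds are uncertain. SLCO5A1 is thus a description. It was not called in the fit of all 8 libraries, and was called in that of the 1 h libraries alone (edgeR adjusted p = 0.000322). At 6 h it had 168, 217, 7 and 143 counts in the same order. HLA-G and CLMAT3 were at 0 with EV alone and with atRAL alone, and had 75 to 153 counts in the control and with atRAL plus EV. CA5B was at 0 with atRAL alone, SEPTIN7P3 with atRAL plus EV, and PLA2G4B with EV alone, each at 0 in 1 library.

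Pseudogene members had lower median changes with EV than protein coding members. Of 257 members annotated as pseudogenes and not as transcribed ones, 174 (67.7%) were below 0 in both pairs and 22 above 0 in both, with a median log2 fold change of -0.22 and 0 called. The median log2 ratio was -0.25 without atRAL and -0.21 with it, and at 6 h the same members had a median of 0.05. For the 11503 protein coding members the median was 0.006, and 21.8% were below 0 in both pairs. TPI1P1, a copy of the triosephosphate isomerase gene, was at 8.34 CPM in the control, 4.51 with EV, 10.3 with atRAL and 5.84 with atRAL plus EV, and its log2 difference of -0.85 (SE 0.13) did not pass. Such copies share reads with their parent genes and are uncertain. The 225 members annotated as transcribed pseudogenes had a median of -0.06, with 42.7% below 0 in both pairs. The 540 long noncoding members had a median of -0.04.

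Each pair of libraries was also read on its own, without a test, since each holds 1 library per side and the pairs share none. Above 1.5-fold in both pairs were 83 members, and below it in both 22, against 255 (1.5%) and 246 (1.44%) of all 17044 genes tested. Among the 11878 members with the minimum in all 4 libraries, 66 were above in both, 9 below in both and 2 above in one and below in the other. At 2-fold the same members gave 33 above and 0 below, all 12562 members 39 and 5, and all genes tested 108 and 66. Of these 33, 18 were called and 15 were not, the latter led by EGR3, FOS and FOSB. Across these genes, which are not independent replicates, Pearson's r between the pair ratios was 0.43 and Spearman's rho 0.06, over all members 0.34 and 0.07, and over all genes tested 0.15 and 0.09.

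**Figure D3:**
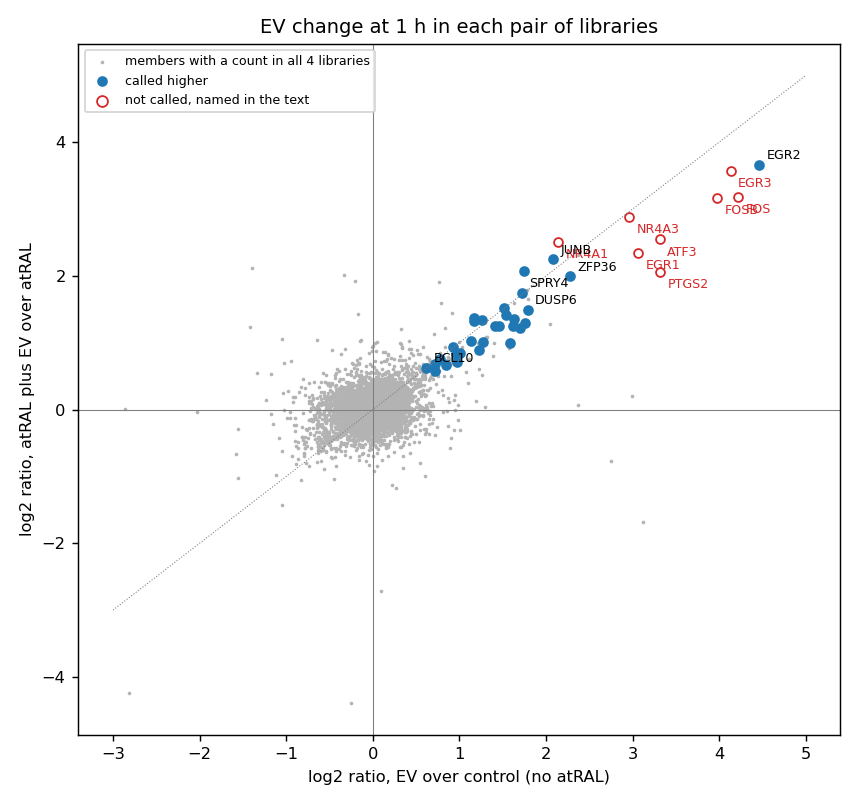
Log2 ratio with EV in the pair without atRAL (x axis) and the pair with atRAL (y axis) for members with a count in all 4 libraries, 1 library per side. Filled blue points are the 30 members called higher, open red points are named members that were not called, and the dotted line marks equal ratios. The 30 called members lie in the upper right, with EGR2 at 4.47 and 3.67.

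Among the 30 called members the ratio was larger without atRAL in 21, and the difference of the ratios ran from -0.80 (EGR2) to 0.32 (DUSP2), with a median of -0.15. EGR2 rose by 4.47 without atRAL and 3.67 with it, TRIB1 by 1.58 and 0.99, and KBTBD8 by 1.70 and 1.22. JUNB rose by 2.08 and 2.25 and IER2 by 1.52 and 1.53. With 1 library per condition at 1 h the difference between the pairs was not tested. The members whose ratio was most above with atRAL, among those with the minimum in all 4 libraries, were TRIM59-IFT80 (-1.39 without and 2.12 with atRAL), LUZP6 (-0.34 and 2.02), SLC9A3 (-0.20 and 1.93), AJM1 (-1.03 and 0.69) and TMEM160 (-1.23 and 0.14). TRIM59-IFT80 spans neighbouring genes and LUZP6 shares a transcript with its neighbour, so both are uncertain. The setting aside of readthrough genes by description did not take out TRIM59-IFT80, so it may be incomplete. Those most below were SUOX (0.27 and -1.18), STBD1 (0.23 and -1.13), RN7SL2 (1.01 and -0.30), CASTOR3 (1.29 and 0.03) and PTGS2 (3.32 and 2.06).

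The atRAL effect at 1 h, which uses the same 4 libraries, ran from -0.79 (SPRY2) to 1.00 (ANGPTL4) over the 30 called members on the log2 scale, with a median of 0.04. For EGR2 it was -0.30 (SE 0.18) beside an EV effect of 4.09. For JUNB it was 0.31 (SE 0.17) beside 2.17.

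The called members were also read at 6 h. Over the 30, the median log2 fold change with EV at 6 h was 0.18, and 9 were below 0. The 6 h libraries add to the spread of the test that called the 30, so this reading is not independent of the call. Of the 33 members with the minimum in every 1 h library and 2-fold up in both pairs, 17 were below 0 at 6 h. At 6 h EV changed 290 genes in all (1.7%), 186 higher (1.09%) and 104 lower (0.61%), among them 176 members higher and 98 lower. Among the 30, HBEGF, DUSP5, SERPINB2, DUSP6, MAFF and ANGPTL4 were again higher at 6 h, and NEDD9, a focal adhesion scaffold, was lower. NEDD9 went from a log2 fold change of 0.70 (SE 0.09) at 1 h to -0.85 (SE 0.09) at 6 h. In edgeR's test of the difference between the times its adjusted p was 0.0110.

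The difference between the times was itself tested, as the EV effect at 6 h minus that at 1 h, and passed for 36 genes (0.211%), 20 more positive at 6 h (0.117%) and 16 more negative (0.0939%). Of the 30 called members, 9 had a more negative effect at 6 h by this test, namely EGR2, JUNB, IER2, IER3, NEDD9, KLF10, CSRNP1, SOWAHC and ZC3H12A, and 0 a more positive one. The 30 were chosen for a high value at 1 h, which enters this difference and tilts it towards a more negative value, so these counts are a description. At 6 h EGR2 was at 0.897 CPM in the control, 0.812 with EV, 1.55 with atRAL and 1.20 with atRAL plus EV, all below the lowest library of 1 h. SERPINB2 had a log2 fold change of 1.53 at 1 h and 2.76 (SE 0.12) at 6 h, and the difference missed the threshold (edgeR adjusted p = 0.0520).

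**Figure D4:**
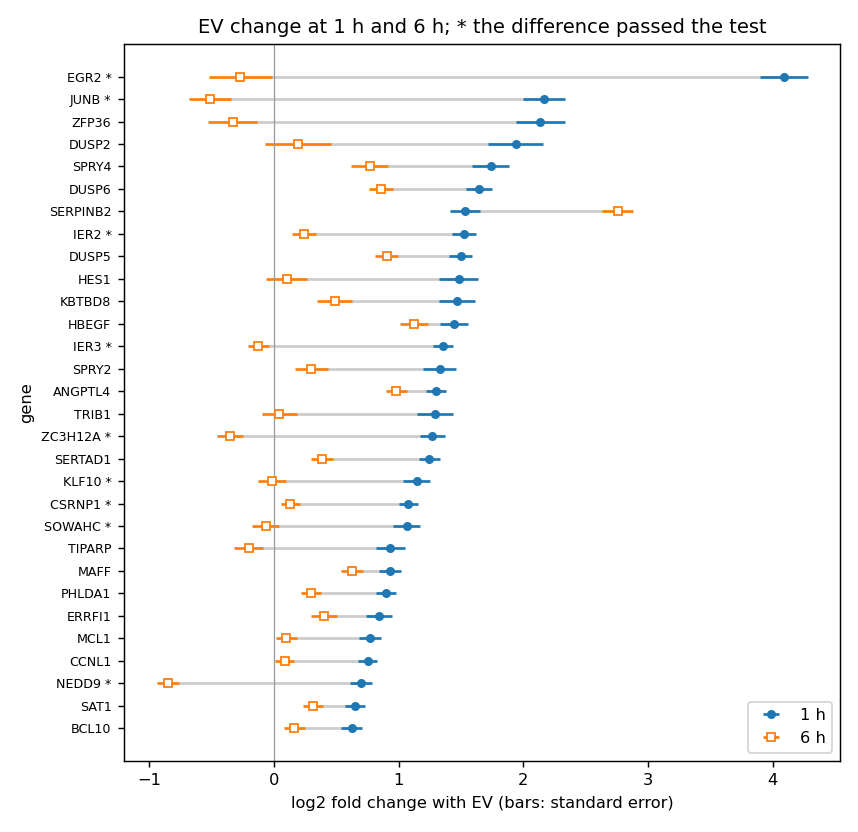
Log2 fold change with EV at 1 h (filled circles) and 6 h (open squares) for the 30 members called higher at 1 h, each from 2 libraries against 2, with bars for the standard error. An asterisk marks the 9 genes whose effect differed between the times. SERPINB2 is the 1 gene whose 6 h value (2.76) lies above its 1 h value (1.53).

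The size of the group rests on every library. When the control or the EV library of 1 h was left out, 2 genes were called by edgeR, and 1 gene when the atRAL or the combined library was, and EGR2 was the only member among them each time. When a library of 6 h was left out instead, 191 to 194 genes were called, the 31 called members among them. The direction of these 31 members was the same in all 20 alternatives.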

How the data were processed

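RNA of RPE-1 cells, extracted with TRIzol, went into stranded TruSeq mRNA libraries, per the labels' protocols. The deposited read counts are whole and not normalised. The authors also deposited FPKM, which scales by transcript length and library size, per the file headers. HISAT2 2.1.0, StringTie 2.1.3b and GRCh38 appear, with no role given, per the submitters' processing notes. Not given in the sources used here are the counter, the annotation release and the strand setting, so reads of overlapping and antisense genes may not be separable. A further 8 per-sample columns (TPM) were not used.

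The filter was edgeR's filterByExpr at a minimum count of 10 (kept 17044 of 46427 genes, all 12562 members among them). Counts were scaled by TMM (factors 0.982 to 1.03) and tested in R 4.3.3 with edgeR 4.0.16 by the robust quasi-likelihood F test, two-sided, with Benjamini-Hochberg adjustment over all 17044 genes and a threshold of 0.05. The model over all 8 libraries has a term for time and, nested in it, terms for atRAL and for EV, which pairs the EV comparisons by atRAL status and leaves 2 residual degrees of freedom. The spread is thus the interaction of atRAL and EV at both times. The biological coefficient of variation was 9.66%, and SE stands for the standard error of a log2 value. Pair ratios are log2 CPM with a prior count of 2. The script was tested on simulated counts.

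Members and gene lists were chosen with earlier results of these data known, so the lists are described by counts and medians with no test. Named genes are the 15 highest and 15 lowest called members with a gene symbol, a mean log2 CPM of 1 or more and at least 1.3-fold change in both pairs, filled to 10 with uncalled members where fewer were called. To these come up to 6 members per list by size of change, and the 5 most above and 5 most below in the difference of the pair ratios. Other called members and members at 0 were named after their values were seen. Alternatives were other scalings, filters, DESeq2 1.42.0, limma 3.58.1 on counts (voom) and on log2 FPKM plus 1 or 0.1, the 1 h libraries alone, no atRAL term, no robust step and each library left out. A few genes and 1 list that the rule would name are not reported here. Gene positions are RefSeq's on GRCh38.p14.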

Additional observations from a re-analysis of the deposited data

Results flagged for a closer look

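The EV effect at 6 h minus the EV effect at 1 h passed edgeR's test of the difference itself for 15 of the genes named or listed here. For 12 of them the effect was more negative at 6 h. Over all genes tested the difference passed for 36, with 20 more positive and 16 more negative at 6 h. The genes were named largely by their change at 1 h, which enters this difference, so the count of 12 is a description. On the log2 scale the difference was -4.36 for EGR2, -2.68 for JUNB, -1.29 for IER2 and -1.48 for IER3. It was -1.55 for NEDD9, -1.16 for KLF10, -0.95 for CSRNP1, -1.13 for SOWAHC and -1.62 for ZC3H12A. DUSP8 (-1.92) and PER1 (-1.65) were not called at 1 h in the fit of all 8 libraries, and PDGFRB (-0.91), a marker on the mesenchymal stem cell list, had an effect of 0.02 at 1 h and -0.89 at 6 h.

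The effect was more positive at 6 h for MIR34AHG (10.15), TMEFF1 (2.30) and RNA45SN3 (1.95). The value for MIR34AHG is a fitted one against libraries at 0 and is no bound. RNA45SN3 has near-identical copies and is uncertain.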

How the results depend on the processing

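The count of genes called for EV at 1 h was 35, and 107 with DESeq2, 134 with the 1 h libraries alone, 23 with no atRAL term, 22 with log2(FPKM + 1), and 1 to 194 when each library was left out in turn. The count higher was 31, and 94 with DESeq2, 113 with the 1 h libraries alone, 19 with no atRAL term, and 1 to 149 with a library left out. The count lower was 4, and 13 with DESeq2, 21 with the 1 h libraries alone, 2 with limma-voom, 1 with no filter on low counts, 1 with log2(FPKM + 1), and 0 to 45 with a library left out. For the EV effect at 6 h minus that at 1 h it was 36, and 4 with no filter, 58 with a minimum count of 50, 211 with DESeq2, 16 with limma-voom, and 1 to 1165 with a library left out, the highest without the 6 h control or the 6 h EV library. The causes were not tested. Leaving out a 1 h library takes 1 of the 2 residual degrees of freedom and leaves 1 library on a side, which is assumed to vary like the others. Of the 31 called members, DESeq2 and the 1 h libraries alone called all 31, limma-voom 28, log2(FPKM + 0.1) 24, the fit with no filter 23, that with no atRAL term 20 and log2(FPKM + 1) 18. Other scalings called 30 or 31 of them and moved the median of all genes by less than 0.1. A member minimum of 50 or 200 counts gave 13574 or 11577 members. The difference between the pairs of 1 h was not tested.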
